A study of Mus musculus with 6 samples.

Results

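The caveolin and cavin genes of B16 melanoma cells were followed in IFNγR1KO and scrambled control cells: Cav1 and Cav2 (caveolins), Cavin1, Cavin2 and Cavin3 (cavins) and Ehd2. These 6 genes were chosen by name as the parts of the caveola coat, with their RNA difference between the groups already known, so that difference is described here without a test. All 6 are among the 55335 genes of the count tables. Of them, 5 had at least 1 count in any library, and 4 (Cav2, Cavin1, Cavin2 and Ehd2) passed the filter on low counts that kept 13642 genes. That filter looks at the counts themselves, so the 4 genes that passed it are not a sample of the 6.

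Caveolae are small flask-shaped pits of the plasma membrane that store membrane, buffer stretch and gather signalling receptors and lipids. Caveolin-1 is the membrane protein that builds their coat, and caveolin-2 joins it in mixed oligomers and reaches the surface with its help. Cavin-1 is recruited from the cytosol to stabilise the coat, cavin-2 and cavin-3 assemble with it, and EHD2 is an ATPase that sits at the neck and holds the pit at the membrane. Endothelial cells, adipocytes and fibroblasts are rich in caveolae, and striated muscle has its own family members, caveolin-3 and cavin-4.

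B16 (B16-BL6) is a mouse melanoma line. Poly(A) RNA was sequenced from 3 cultures of scrambled control cells, which carry a CRISPR guide against GFP and are labelled wild type, and from 3 cultures labelled IFNyR1KO (IFNγR1KO), which carry guides against Ifngr1. Both groups carry the lentiviral CRISPR vector, and no treatment is named. IFNγR1KO cells were grown from single cells, the labels give neither the guide nor the clone behind each culture, and so genotype and clone cannot be told apart. The cultures were seeded in triplicate, and standard errors and p-values therefore measure only the spread between these cultures, which may be technical.

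The libraries held 9402640 to 10579788 counts on genes in scrambled control and 6698956 to 7409479 in IFNγR1KO cells. A single count was worth 0.0966 to 0.109 CPM in scrambled control and 0.135 to 0.142 CPM in IFNγR1KO libraries, where CPM are counts scaled to the TMM library size of the tested genes. Scrambled control replicate 3 and IFNγR1KO replicate 12 stood apart from their own groups, with a chi-square per degree of freedom of 16.2 to 24.7 against the other replicates, where the remaining pairs gave 9.99 (scrambled control) and 2.74 (IFNγR1KO). Ifngr1 had 154, 144 and 172 counts in scrambled control and 80, 85 and 82 counts in IFNγR1KO libraries, a log2 fold change of -0.47 (SE 0.16, edgeR adjusted p = 0.0729). In that test, 15.3% of genes passed an adjusted p of 0.05 (7.73% higher and 7.62% lower in IFNγR1KO cells), and 5.2% were DEGs, whose log2 fold change was also beyond 1 in size (3.25% higher, 1.96% lower). Over all of them, the median log2 fold change was -0.0015.

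The promoters of the 4 genes that carry the results (both caveolins and the 2 measured cavins) are printed first, to show their base composition and short motifs. They run from 250 bases before to 50 after the RefSeq start of transcription, 5′ to 3′ on the strand of the gene, in build GRCm38.p6. Capitals mark a GC box, a TATA box, an AP-1 motif or a TEAD motif on either strand. The GC box was searched as GGGCGG, the site of SP1-type factors. The TATA box was searched as TATAAA. The AP-1 motif, bound by the FOS and JUN factors, was searched as TGANTCA. For TEAD, the partner of YAP, the letters were GGAATG.
Cav2, chr6:17280935-17281234, plus strand: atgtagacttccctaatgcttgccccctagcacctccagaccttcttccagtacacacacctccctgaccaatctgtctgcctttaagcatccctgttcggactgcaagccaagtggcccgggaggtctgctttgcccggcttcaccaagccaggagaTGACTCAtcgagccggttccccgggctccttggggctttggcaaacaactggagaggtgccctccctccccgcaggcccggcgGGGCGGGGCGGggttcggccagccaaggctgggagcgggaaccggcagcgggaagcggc
Cav1, chr6:17306085-17306384, plus strand: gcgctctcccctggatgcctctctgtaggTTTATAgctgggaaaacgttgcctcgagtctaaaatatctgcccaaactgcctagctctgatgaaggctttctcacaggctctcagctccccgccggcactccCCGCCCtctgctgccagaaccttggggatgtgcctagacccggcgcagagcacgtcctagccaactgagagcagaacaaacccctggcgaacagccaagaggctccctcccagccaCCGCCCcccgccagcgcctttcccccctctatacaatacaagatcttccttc
Cavin1, chr11:100970568-100970867, minus strand: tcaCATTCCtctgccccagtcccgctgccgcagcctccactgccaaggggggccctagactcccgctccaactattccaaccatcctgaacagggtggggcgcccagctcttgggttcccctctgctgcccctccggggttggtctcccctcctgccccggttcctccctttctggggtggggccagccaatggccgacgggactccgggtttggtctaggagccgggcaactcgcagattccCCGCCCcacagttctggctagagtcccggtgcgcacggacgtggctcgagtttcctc
Cavin2, chr1:51288876-51289175, plus strand: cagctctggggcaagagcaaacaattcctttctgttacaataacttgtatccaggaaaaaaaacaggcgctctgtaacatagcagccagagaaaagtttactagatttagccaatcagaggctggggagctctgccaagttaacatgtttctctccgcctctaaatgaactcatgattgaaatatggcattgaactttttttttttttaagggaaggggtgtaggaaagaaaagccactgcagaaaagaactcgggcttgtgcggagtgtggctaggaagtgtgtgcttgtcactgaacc
Promoters of this kind were given for 5 of the 6 genes, with a second start for Cav1 and for Cavin1.

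The Cav2 promoter held 16 CG dinucleotides and 64.3% G and C. It carried a pair of overlapping GC boxes at -9 and -4 from the start, on the coding strand, and 1 AP-1 motif at -92. The Cav1 promoter held 13 CG, with GC boxes at -118 and -2 and a TATA box at -221, all on the reverse strand. The Cavin1 promoter held 17 CG, a GC box at -7 and a TEAD motif at -247, both on the reverse strand, and the Ehd2 promoter held 18 CG and GC boxes at -226 and 14. The Cavin2 promoter stood apart, with 4 CG, 43.3% G and C and none of the motifs searched. The median over 32851 promoters of the same length was 7 CG, and 68.6% of them had as many CG as Cavin2 or more, against 33.0% for Cav2. A GC box lay in 35.7% of all promoters, a TATA box in 13.6%, an AP-1 motif in 7.81% and a TEAD motif in 14.7%.

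The E-box (CANNTG) is a motif of basic helix-loop-helix factors. It lay at -140 and -47 in Cav2, at -57 in Cav1, at -158 from the second Cav1 start and at -204 in Ehd2. Of all promoters, 72.3% held it. The interferon-stimulated response element and the ATF4 motif (TGATGNAA) were in none of these windows, and in 3.44% and 3.97% of all promoters. Such matches describe letters in a window of 300 bases and nothing about binding.

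Cav2 (ENSMUSG00000000058.6) was the most abundant of the 6 transcripts in scrambled control, and had the largest fitted difference between the groups of the 4 that passed the filter. It lies on the plus strand of chromosome 6, from 17281185 to 17289115 in GRCm38. The scrambled control libraries held 1317, 897 and 1090 counts and the IFNγR1KO libraries 430, 493 and 298 counts, which are 143, 89.2 and 105 CPM against 61.1, 66.8 and 41.9 CPM. Every IFNγR1KO library lay below every scrambled control library, as was the case for 16.6% of all tested genes. Scrambled control replicate 1 was the highest and IFNγR1KO replicate 12 the lowest, and these are the libraries that widened the gap.

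On average, Cav2 stood at 113 ± 27.6 CPM in scrambled control against 56.6 ± 13.0 CPM in IFNγR1KO cells (SD, n = 3 each). The log2 fold change was -0.99 (SE 0.20, 95% interval -1.43 to -0.55), which is a level in IFNγR1KO cells of 0.503 times that in scrambled control. This estimate lay just short of -1, the fold limit used for DEGs. It lay beyond -1 with DESeq2 (-1.005), without the filter on low counts (-1.02), and when scrambled control replicate 2 (-1.13), scrambled control replicate 3 (-1.04), IFNγR1KO replicate 10 (-1.05) or IFNγR1KO replicate 11 (-1.11) was left out. Without scrambled control replicate 1 the log2 fold change was -0.78 and without IFNγR1KO replicate 12 it was -0.82. In these bulk libraries, fewer cells that express a gene and less RNA per cell cannot be told apart.

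Cav1 (ENSMUSG00000007655.16), the gene of the caveolin without which caveolae do not form outside muscle, was barely detected. It starts 17.2 kb after the end of Cav2 on the same strand, and spans 17306335 to 17341452 of chromosome 6. Its counts were 6, 3 and 7 in scrambled control libraries and 0 in each IFNγR1KO library. The scrambled control cells thus held 16 counts of Cav1 in all, with an exact 95% Poisson interval of 9.15 to 26.0, or 0.540 CPM (0.309 to 0.877 CPM). Intervals and floors of this kind cover counting error only.

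For the IFNγR1KO cells, a count of 0 over the 3 libraries allows up to 0.139 CPM (3 counts over the group). Against this floor Cav1 was at least 3.88-fold lower in IFNγR1KO cells when its scrambled control level is taken at 0.540 CPM, and at least 2.22-fold lower when that level is taken at the lower end of its interval. Cav1 failed the filter on low counts and has no fitted fold change.

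Cavin1 (ENSMUSG00000004044.9), the coat protein that caveolae need in muscle and elsewhere, was counted in every library. It lies on the minus strand of chromosome 11 from 100956733 to 100970887. Its counts were 234, 301 and 433 in scrambled control and 148, 212 and 233 in IFNγR1KO libraries, or 25.4, 29.9 and 41.8 CPM against 21.03, 28.7 and 32.8 CPM. The groups overlapped, and within each group the highest value was in the library that stood apart, replicate 3 or replicate 12. The means were 32.4 ± 8.49 and 27.5 ± 5.96 CPM (SD, n = 3 each). Cavin1 had a log2 fold change of -0.24 (SE 0.21, 95% interval -0.69 to 0.21). Without scrambled control replicate 3 the log2 fold change was -0.01 and without IFNγR1KO replicate 10 it was -0.08, while without scrambled control replicate 1 or IFNγR1KO replicate 12 it was -0.39.

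Cavin2 (ENSMUSG00000045954.7), which helps to shape the caveola membrane, was counted at like levels in the scrambled control libraries. It lies on the plus strand of chromosome 1 from 51289126 to 51302960. Its counts were 341, 394 and 340 in scrambled control and 345, 278 and 230 in IFNγR1KO libraries, or 37.0, 39.2 and 32.9 CPM against 49.0, 37.7 and 32.3 CPM. IFNγR1KO replicate 10 was the highest and IFNγR1KO replicate 12 the lowest of all 6 libraries, so the range of IFNγR1KO cells enclosed that of scrambled control. The means were 36.4 ± 3.22 CPM and 39.7 ± 8.52 CPM (SD, n = 3 each). Cavin2 had a log2 fold change of 0.13 (SE 0.17, 95% interval -0.24 to 0.49). Without IFNγR1KO replicate 10 it was -0.05.

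Cavin3 (ENSMUSG00000037060.3), on the minus strand of chromosome 7 from 105480083 to 105482300, had 0 counts in all 6 libraries. Over the 6 libraries together a count of 0 allows up to 0.0587 CPM. The muscle-type genes Cav3 and Cavin4 also had 0 counts in all 6 libraries, with the same limit. Of the cavins, RNA of Cavin1 and Cavin2 was detected at this depth. For Cavin3, 22.5% of exonic bases lie under a gene of the other strand. The strand setting of the counting is not given, so its limit may not cover reads left out there.

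Ehd2 (ENSMUSG00000074364.6), on the minus strand of chromosome 7 from 15946958 to 15967567, was the least abundant of the 4 genes that passed the filter. Its counts were 41, 49 and 86 in scrambled control and 48, 67 and 74 in IFNγR1KO libraries, or 4.45, 4.88 and 8.31 CPM against 6.82, 9.08 and 10.4 CPM. Scrambled control replicate 3 lay above IFNγR1KO replicate 10, so the groups overlapped. As for Cavin1, the highest library of each group was the one that stood apart. The means were 5.88 ± 2.12 CPM and 8.77 ± 1.81 CPM (SD, n = 3 each). Ehd2 had a log2 fold change of 0.57 (SE 0.27, 95% interval -0.01 to 1.15). Without scrambled control replicate 3 it was 0.91, while it was 0.41 without scrambled control replicate 1. It was 0.45 without scrambled control replicate 2 and 0.43 without IFNγR1KO replicate 12.

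**Figure D1:**
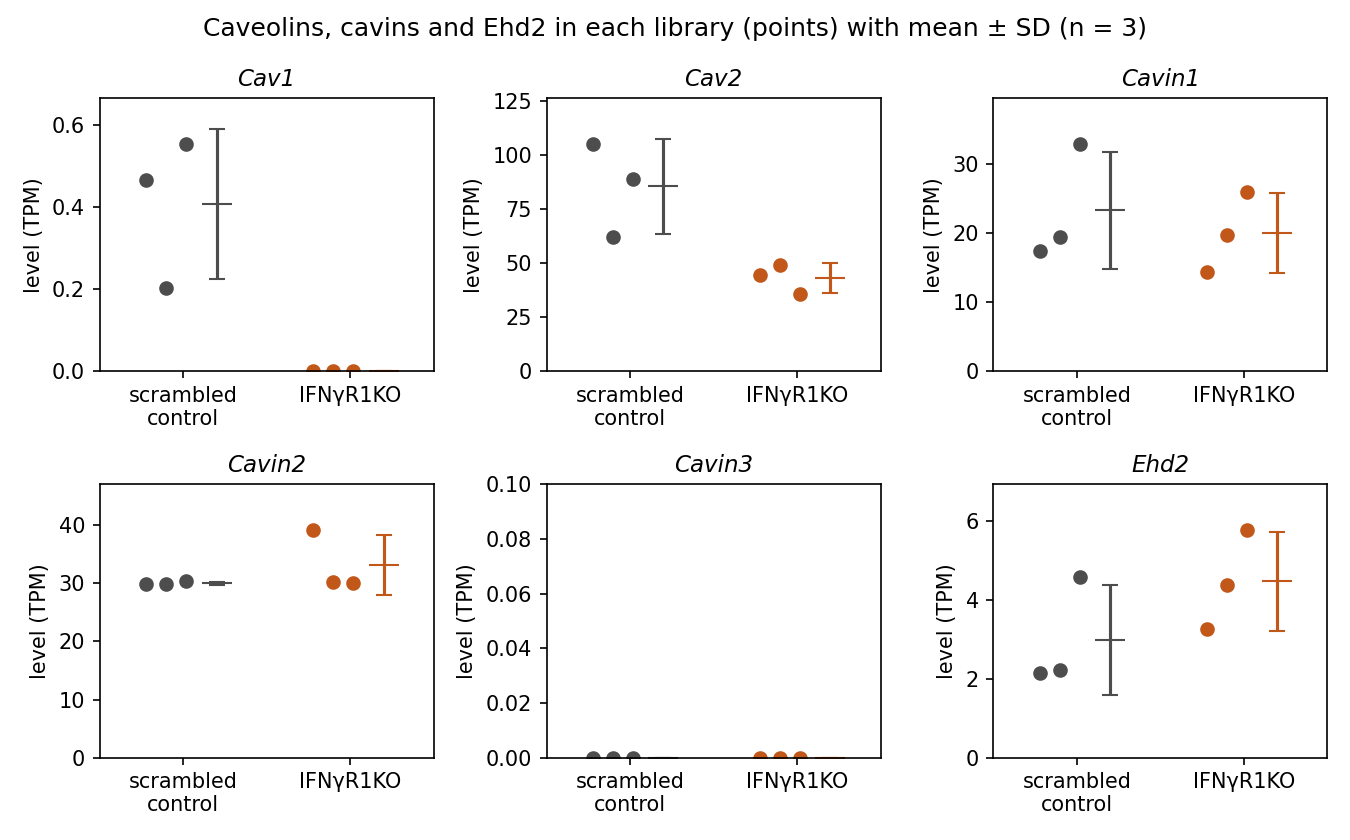
Level of each gene in TPM (vertical axes from 0) in the 3 scrambled control (grey) and 3 IFNγR1KO (orange) libraries, as points in the order of the replicate numbers, with the mean ± SD beside them. Cav2 is lower in every IFNγR1KO library, Cav1 is at 0 in all 3 of them, Cavin3 is at 0 in all 6, and the groups overlap for Cavin1, Cavin2 and Ehd2.

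To compare levels between genes, counts were divided by exonic length and scaled to a common total within each library (TPM). In scrambled control the order was Cav2 at 85.6 ± 21.8 TPM, Cavin2 at 30.0 ± 0.293 TPM, Cavin1 at 23.3 ± 8.42 TPM, Ehd2 at 2.98 ± 1.39 TPM and Cav1 at 0.407 ± 0.183 TPM (SD, n = 3 each). The libraries of Cavin1 reached 32.9 TPM and so overlapped those of Cavin2, and no other neighbours in the order overlapped. In IFNγR1KO cells the order was Cav2 at 43.2 ± 6.92 TPM, Cavin2 at 33.2 ± 5.24 TPM, Cavin1 at 19.98 ± 5.80 TPM and Ehd2 at 4.46 ± 1.26 TPM, and here Cav2 overlapped Cavin2. Among 13636 genes ranked by mean TPM over all 6 libraries of both groups, Cav2 was at rank 2364, Cavin2 at 4356, Cavin1 at 5731 and Ehd2 at 11552.

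The proportions of the coat genes to Cav1 were taken within each library. In the scrambled control libraries, Cav2 exceeded Cav1 by 7.81 ± 0.47 on the log2 scale of TPM (SD, n = 3), a ratio of 224. Cavin2 exceeded Cav1 by 6.33 ± 0.77, Cavin1 by 5.90 ± 0.68 and Ehd2 by 2.90 ± 0.64 on the same scale. These ratios carry the counting error of the 3 to 7 Cav1 counts of each library, and have no value in IFNγR1KO libraries, where Cav1 was at 0.

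Ratios between the other genes, which do not depend on the scaling of a library, were added after the levels had been seen. Cav2 was 3.54, 2.09 and 2.94 times the level of Cavin2 in scrambled control and 1.14, 1.62 and 1.19 times in IFNγR1KO libraries. The groups did not overlap, with mean log2 ratios of 1.48 ± 0.39 and 0.38 ± 0.28 (SD, n = 3 each). The ratio to Cavin2 was likewise lower in every IFNγR1KO library for 13.8% of all tested genes. Over Cavin1, Cav2 stood at 6.05, 3.21 and 2.71 times in scrambled control and at 3.12, 2.50 and 1.38 times in IFNγR1KO libraries. These overlapped, with mean log2 ratios of 1.91 ± 0.61 and 1.14 ± 0.61.

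Of the ratios taken, that of Ehd2 to Cavin1 varied least within a group. Its log2 ratio was -3.03, -3.13 and -2.85 in scrambled control and -2.14, -2.17 and -2.17 in IFNγR1KO libraries, with means of -3.00 ± 0.15 and -2.16 ± 0.02 (SD, n = 3 each). The libraries that stood apart did not stand apart in this ratio, since Cavin1 and Ehd2 were both at their highest there. The groups did not overlap, and the ratio to Cavin1 was higher in every IFNγR1KO library for 13.9% of all tested genes. The counting error alone was 0.170 to 0.244 in a library on this log2 scale, more than the spread within either group, so the closeness of the 3 IFNγR1KO values is beyond what these counts can resolve. Ehd2 was at 0.125 times the TPM level of Cavin1 in scrambled control and at 0.224 times in IFNγR1KO cells. Cavin2 over Cavin1 overlapped between the groups, at 0.43 ± 0.48 and 0.76 ± 0.63 on the log2 scale.

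**Figure D2:**
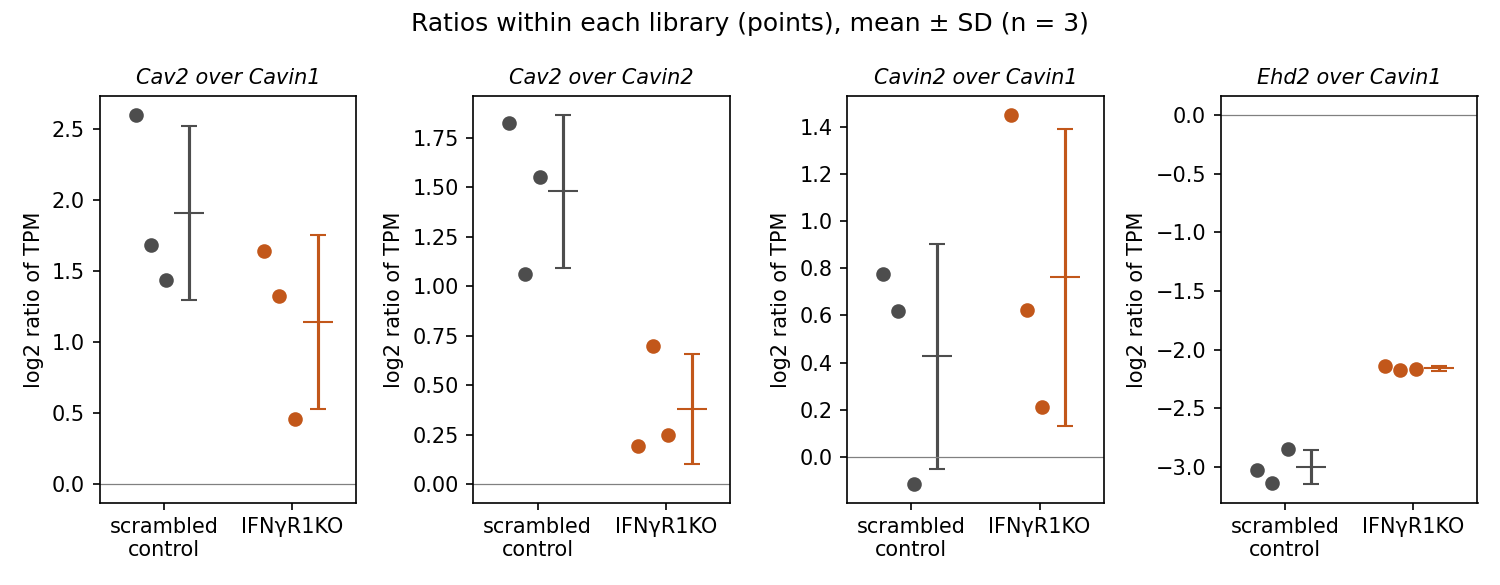
Log2 ratio of TPM between pairs of genes in each scrambled control (grey) and IFNγR1KO (orange) library, as points, with the mean ± SD of 3 libraries beside them; each panel has its own vertical axis. The groups do not overlap for Cav2 over Cavin2 and for Ehd2 over Cavin1, and overlap for the other 2 ratios.

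Across the 6 libraries, the pattern of Cavin1 was matched most closely by Rptor (the raptor subunit of mTORC1), Map3k4 (a MAP kinase kinase kinase), Ece1 (an endothelin-converting enzyme), Wwc1 (KIBRA, of the Hippo pathway) and Zmiz2. The measure was the root-mean-square difference of log2 CPM, each gene centred on its own mean, and it was 0.0467 for Rptor and 0.0662 for Zmiz2, where the median over 11057 genes was 0.362. For Cav2, a gene added after its values were seen, the nearest were Mtfr2 (0.132), the centromere gene Cenpi (0.140), Tnfaip8 (0.157), the carbonyl reductase Cbr3 (0.165) and the cyclin E gene Ccne2 (0.171), with a median of 0.599. No gene matched Cav2 as closely as 5 genes matched Cavin1. This measure grows with the spread of a gene's own values, so Cav2 and Cavin1 cannot be compared by it. After centring, Cav2 ran from -0.90 to 0.87 and Cavin1 from -0.48 to 0.51. All of these patterns share the same 6 libraries and their differences in depth. Within each group, Cavin1 was highest in the library that stood apart, and what the matching genes have in common was not tested. Cav1, at 0 in 3 libraries, was given no pattern of this kind.

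Other proteins that work at caveolae, or are described there, were read from a list of 22 genes. Of these, 16 passed the filter, and edgeR's adjusted p put 3 higher and 2 lower in IFNγR1KO cells. DESeq2 gave the same counts, an unadjusted p under 0.05 held for 4 that were higher and 3 that were lower, and none was a DEG with either tool. Over all tested genes, edgeR's adjusted p put 7.73% higher and 7.62% lower, and 5.2% were DEGs. The median over the list was 0.17 on the log2 scale. The 2 most abundant were Slc7a1, the cationic amino acid transporter CAT-1, and Pacsin2, which bends membrane at the caveola neck. Slc7a1 rose from 179 ± 32.9 to 314 ± 52.4 CPM (log2 fold change 0.81, edgeR adjusted p = 0.00760). Pacsin2 stood at 132 ± 8.84 and 158 ± 15.4 CPM (0.26, edgeR adjusted p = 0.218).

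The other 4 that passed the adjusted p are named after their values were seen. The tyrosine kinase Fyn, a kinase of caveolin-1, rose from 34.0 ± 1.74 to 55.2 ± 4.10 CPM (log2 fold change 0.70, edgeR adjusted p = 0.00412), and the raft protein Flot1 rose from 23.6 ± 5.31 to 35.6 ± 1.40 CPM (0.59, edgeR adjusted p = 0.0327). Of the relatives of Ehd2, Ehd4 fell from 62.6 ± 9.76 to 36.6 ± 8.50 CPM (-0.78, edgeR adjusted p = 0.0126) and Ehd1, a factor of endosomal recycling, fell from 90.4 ± 12.7 to 63.3 ± 4.02 CPM (-0.52, edgeR adjusted p = 0.0295), while Ehd3 stood at 46.1 ± 6.37 and 42.5 ± 7.64 CPM (-0.12, edgeR adjusted p = 0.687). By length, Ehd1 and Ehd4 stood at 62.0 and 39.9 TPM in scrambled control, far above the 2.98 TPM of Ehd2.

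**Figure D3:**
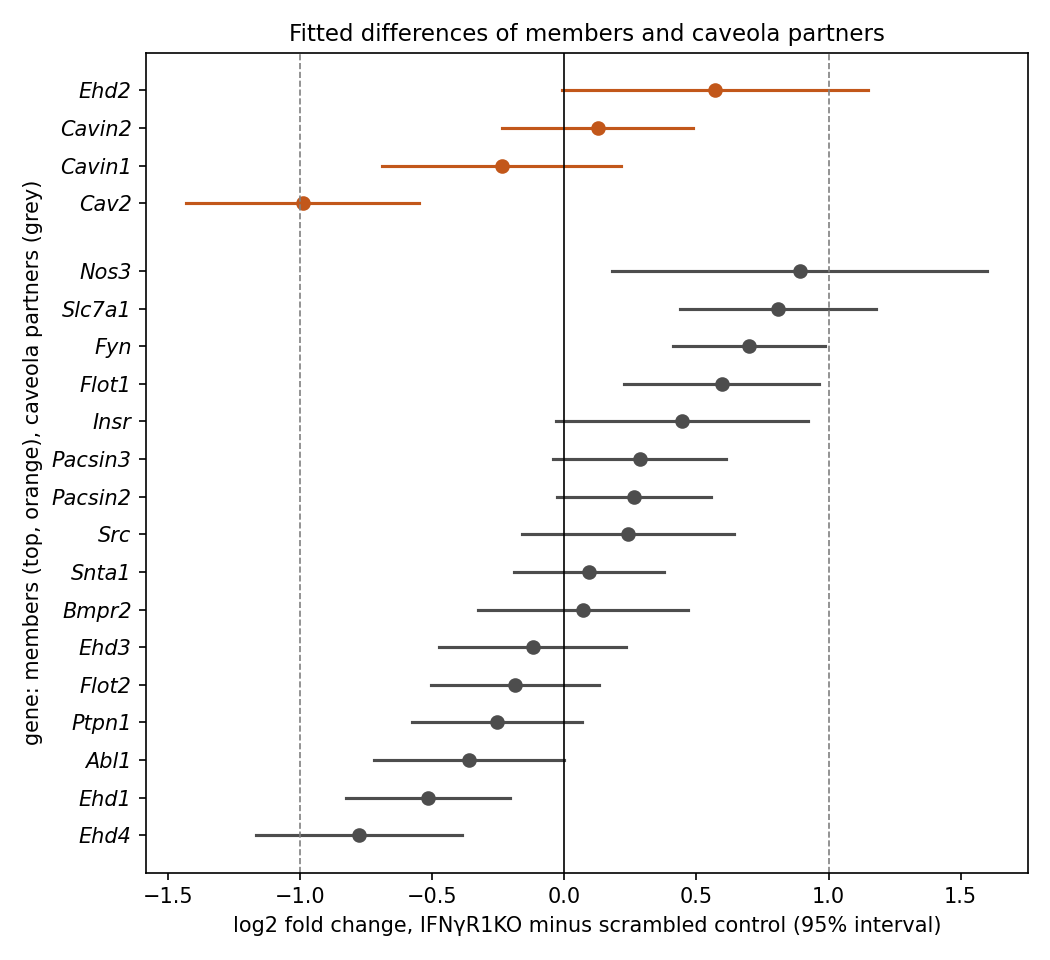
Log2 fold change of IFNγR1KO against scrambled control (points) with its 95% interval (lines) for the 4 genes of the coat that passed the filter (orange) and 16 caveola partners (grey); dashed lines mark the fold limits of a DEG. The interval of Cav2 lies below 0, that of Ehd2 reaches just past 0, and those of Cavin1 and Cavin2 span 0.

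The clathrin route, the main other way into the cell, was read from 36 genes, of which 30 passed the filter. In edgeR none was a DEG, and at the adjusted p none was higher and 2 were lower, as in DESeq2. Of all tested genes, 7.73% were higher and 7.62% lower in edgeR. An unadjusted p under 0.05 held for 1 that was higher and 3 that were lower, and the median log2 fold change was -0.10. Clathrin heavy chain Cltc stood at 386 ± 95.3 and 363 ± 87.4 CPM (edgeR adjusted p = 0.824), and the adaptor subunit Ap2m1 at 364 ± 28.1 and 355 ± 4.30 CPM (edgeR adjusted p = 0.898). The 2 genes that fell, named after their values were seen, were the light chain Cltb, from 107 ± 12.3 to 73.9 ± 6.07 CPM (-0.53, edgeR adjusted p = 0.0230), and the actin linker Hip1r, from 46.3 ± 1.69 to 33.6 ± 4.22 CPM (-0.46, edgeR adjusted p = 0.0443).

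Stress fibres tether caveolae, and of 30 actin and stress fibre genes 22 passed the filter. In edgeR none was a DEG, and at the adjusted p 1 was higher and none was lower (DESeq2, 1 and 1). The edgeR shares over all tested genes were 7.73% higher and 7.62% lower. An unadjusted p under 0.05 held for 1 that was higher and 3 that were lower. The list median was -0.12 on the log2 scale. The most abundant, the tropomyosin Tpm1 and filamin A (Flna), stood at 792 ± 98.6 and 567 ± 41.6 CPM (Tpm1, edgeR adjusted p = 0.05003) and at 703 ± 123 and 654 ± 111 CPM (Flna, edgeR adjusted p = 0.755). The gene that rose, named after its value was seen, was the focal adhesion gene Zyx, from 148 ± 21.3 to 241 ± 57.4 CPM (0.71, edgeR adjusted p = 0.0195).

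YAP and TEAD, which respond to stretch and are reported to drive caveola genes, were read through 23 target genes, of which 18 passed the filter. Of these, 1 was higher and 2 were lower at edgeR's adjusted p, as in DESeq2, against 7.73% and 7.62% of all tested genes in edgeR. An unadjusted p under 0.05 held for 2 that were higher and 5 that were lower. The list median was -0.25 on the log2 scale. The one DEG was Ccn2, a secreted matrix protein, which fell from 12.6 ± 2.09 to 5.79 ± 1.47 CPM (-1.11, SE 0.23, edgeR adjusted p = 0.00644). It was no DEG when scrambled control replicate 3 or IFNγR1KO replicate 10 was left out, and 23.2% of its exonic bases lie under a gene of the other strand. Tissue factor (F3) fell from 49.2 ± 1.69 to 28.2 ± 1.14 CPM (-0.80, edgeR adjusted p = 0.00172) and Rbms3 rose from 4.16 ± 0.0772 to 7.72 ± 2.21 CPM (0.89, edgeR adjusted p = 0.0279), both named after their values were seen.

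The genome around the coat genes was read from the 5 nearest tested genes on each side, which gave 50 genes in all, since Cav1 and Cav2 have the same 10. At the adjusted p, 2 were higher and 5 were lower in IFNγR1KO cells, and 1 in each direction was a DEG. Their log2 fold changes had a median of -0.09. Over all tested genes, 7.73% were higher and 7.62% lower at the adjusted p, and 3.25% and 1.96% were DEGs. Around Cav2 and Cav1 the nearest tested genes before and after were Gm4876, 109 kb before Cav2, and Met, 122 kb after the end of Cav1. Gm15581, an antisense gene that overlaps the bodies of Cav2 and Cav1 but none of their exons, had a log2 fold change of -0.34 (SE 0.22, edgeR adjusted p = 0.335). Gm4876 had one of 0.33 (SE 0.19, edgeR adjusted p = 0.271).

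Met, the receptor of hepatocyte growth factor, fell from 396 ± 74.0 to 249 ± 35.8 CPM (-0.67, SE 0.17, edgeR adjusted p = 0.0202). Beyond it, Capza2 had a log2 fold change of -0.07 (edgeR adjusted p = 0.809) and St7 one of 0.01 (edgeR adjusted p = 0.980). The DEG of this stretch, Mdfic, lies 1479 kb before Cav2 and rose from 35.0 ± 1.72 to 75.6 ± 1.04 CPM (1.11, SE 0.13, edgeR adjusted p = 0.000166). The other neighbour DEG was Trim30a, 1015 kb before Cavin3, an interferon-inducible gene of a family with near-identical copies. Trim30a fell from 5.14 ± 0.313 to 2.18 ± 0.365 CPM (-1.23, SE 0.26, edgeR adjusted p = 0.00750).

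**Figure D4:**
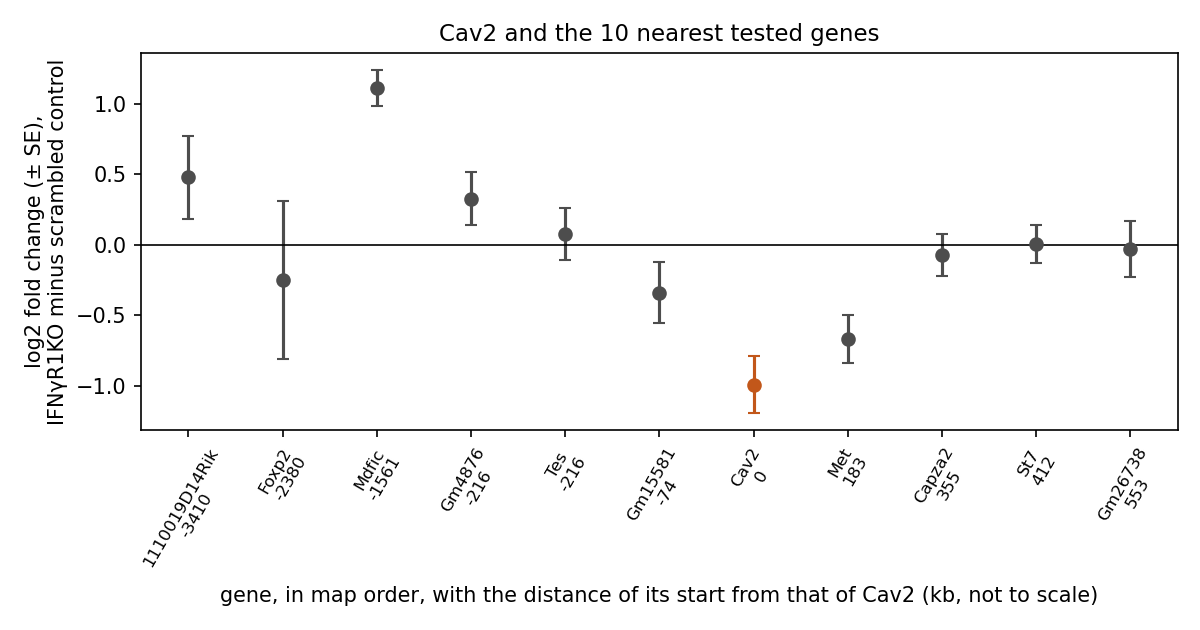
Log2 fold change (± SE) of IFNγR1KO against scrambled control for Cav2 (orange) and its 10 nearest tested genes (grey), in map order, with the distance of each start from that of Cav2 in kb under the name (spacing not to scale). Met and Cav2 are lower, Mdfic is higher, and the genes between and beyond them lie closer to 0.

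Markers of melanocytes, and of other cell types that are rich in caveolae, were counted in the same libraries. The melanocytic genes were at 38490 to 41317 CPM summed in scrambled control and 33351 to 37688 CPM in IFNγR1KO libraries, led by Dct (14422 ± 1727 and 14095 ± 2374 CPM) and Pmel (7421 ± 488 and 6614 ± 211 CPM). All 10 of these genes passed the filter, and 1, Oca2, was lower (edgeR adjusted p = 0.0432), where DESeq2 put 2 lower. Their median log2 fold change was -0.21, with 9 estimates below 0 and 1 above. Of 9 endothelial markers, 6 (Cdh5, Kdr, Tek, Tie1, Erg and Emcn) were at 0 in all 6 libraries. Their sum was 32.2 to 56.3 and 30.1 to 43.8 CPM, nearly all of it Egfl7 (44.2 ± 12.4 and 37.5 ± 7.62 CPM), followed by Vwf (0.944 ± 0.233 and 1.40 ± 0.588 CPM).

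None of 6 adipocyte markers passed the filter, and they summed to at most 1.28 CPM in a library, with Pparg (0.534 ± 0.298 and 0.281 ± 0.248 CPM) and Plin1 (0.0663 ± 0.115 and 0.375 ± 0.218 CPM) the most abundant. Of 8 fibroblast markers, 4 passed the filter, and Lum and Thy1 were at 0. Their sum was 73.3 to 90.9 CPM in scrambled control and 149 to 160 CPM in IFNγR1KO libraries. Col1a2, a collagen chain, made up most of it and rose from 58.9 ± 9.26 to 124 ± 1.24 CPM (1.07, edgeR adjusted p = 0.000476), with Pdgfrb at 16.3 ± 2.52 and 22.5 ± 3.78 CPM. Pdgfra, the remaining marker that passed the filter, stood at 3.60 ± 0.481 and 2.10 ± 0.327 CPM (-0.77, edgeR adjusted p = 0.0866). The other DEG of the list, Col1a1, rose from 1.33 ± 0.357 to 5.20 ± 1.39 CPM (1.96, edgeR adjusted p = 0.00175). These collagens were higher where Cav2 was lower, and their part in its values was not tested.

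Of 8 muscle markers 2 passed the filter, with sums of 10.2 to 12.0 and 15.04 to 18.0 CPM, and Myh1, Myh4, Myod1 and Myog were at 0. Des rose from 7.50 ± 0.791 to 13.4 ± 0.524 CPM (0.83, edgeR adjusted p = 0.00808), and Ttn stood at 2.28 ± 0.450 and 0.934 ± 0.896 CPM. Of 7 leukocyte markers 2 passed, with sums of 13.9 to 15.2 and 11.5 to 13.3 CPM, led by Csf1r (7.86 ± 1.30 and 7.46 ± 1.31 CPM) and Lyz2 (5.89 ± 1.08 and 3.86 ± 1.12 CPM), and Itgam and Cd3e were at 0. The part of these genes in the levels of the coat genes was not tested.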

How the data were processed

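Poly(A) RNA of 3 scrambled control and 3 IFNγR1KO cultures was sequenced. The authors used STAR 2.7.5a for alignment to GRCm38 and HTSeq 0.11.2 for counting, and the deposited values are raw counts per gene; their annotation release and strand setting are not given in the sources used here. No sample was left out, and each count table was used whole. Their own test was DESeq2 1.34.0.

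Symbols, positions and exonic lengths came from GENCODE M21, which holds 55154 of the 55335 identifiers. In R 4.3.3, edgeR 4.0.16 was used with filterByExpr (minimum count 10, minimum total 15), TMM, the quasi-likelihood test and Benjamini-Hochberg adjustment over all 13642 tested genes. DEGs passed 0.05 for the adjusted p and 1 for the absolute log2 fold change. TPM used the union of exons of each gene. Alternatives were DESeq2 1.42.0 (Wald test, independent filtering at 0.05), RLE and upper-quartile scaling, no filter, thinning to 6698956 counts, leaving out each library and, for TPM, the longest transcript. The script was tested on simulated data.

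The genes and lists were chosen with earlier results of these data known. Named were the 6 genes, Ifngr1, Cav3 and Cavin4, of each list the DEGs or else the 2 most abundant genes, the neighbours that were DEGs and those nearest to Cav1 and Cav2, the 2 most abundant markers of each cell type, and the 5 genes nearest in pattern to Cavin1 among those with a mean of at least 5 CPM (pseudocount 0.1 CPM). Other names were added after their values were seen. Promoters are those of RefSeq for GRCm38.p6; their motifs were searched on both strands. Sequences of the proteins were not used here, and 1 marker and 1 motif are not reported here.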

Additional observations from a re-analysis of the deposited data

How the results depend on the processing

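Of the 226 values recomputed under an alternative, 214 were labelled the same. Counts were so labelled when equal to the main value or of like size. This held for 364 lower DEGs over all genes without IFNγR1KO replicate 12, against 267 in the main fit. DEG counts of the caveola partner, clathrin and actin lists, at 0 under every setting, are among them. Fold changes, levels and ratios kept their direction and side of the limits or moved by less than the spread between replicates. As a description of genes chosen with their difference known, the number of coat genes counted as DEGs in the main fit was 0. In that fit 5.2% of all tested genes were DEGs. With the adjusted p alone the number was 1, against 15.3% of all tested genes. It became 1 (Cav2) with DESeq2, where all genes gave 374 higher and 274 lower DEGs. Without the filter on low counts it became 2 (Cav1 and Cav2), where all genes gave 494 higher and 367 lower DEGs. Leaving out each library gave 0 to 1. With both limits in place, these counts turn on whether the log2 fold change of Cav2 passes -1 and, without the filter, on Cav1 too. With the longest transcript as length, Cavin2 in scrambled control was at 22.9 TPM in place of 30.0 TPM, with Cavin1 at 18.2 TPM, so their order did not change. Cavin2 has 1 transcript, and its value moved through the shorter lengths of other genes. Over the 6 fits that each left out a library, the YAP and TEAD targets gave 0 to 1 DEGs that were higher (1 without IFNγR1KO replicate 10) and 0 to 1 that were lower (0 without that library or scrambled control replicate 3), and the neighbours 1 to 2 that were lower (2 without scrambled control replicate 2). The cause was not tested. Over all tested genes these fits gave 340 to 522 higher and 219 to 364 lower DEGs. Without both libraries that stood apart the log2 fold change was -0.86 for Cav2, -0.16 for Cavin1, 0.18 for Cavin2 and 0.77 for Ehd2, an alternative chosen after seeing the data, as was the adjusted p alone. Cav1 rests on 16 counts and Ehd2 on 41 to 86 per library, so depth limits both. No paired analysis was possible because the replicate numbers of the groups (1, 2 and 3 against 10, 11 and 12) share none.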
